A study of Mus musculus with 6 samples.

Results

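The Serpina3 cluster is a row of related genes on mouse chromosome 12, and Serpina3f, Serpina3g, Serpina3h, Serpina3i, Serpina3m and Serpina3n are its 6 members described here. They were chosen because several of them showed very large rises in bone marrow-derived basophils (BMBAs) after IL-3, so the difference between IL-3 and PBS is what selected them, and their values in that contrast are given as a description with no test. Of the 6 members, 5 had a row among the 37043 gene symbols of the count table, and these 5 also passed the filter on low counts, which 16675 symbols passed. Serpina3m had no row and is not analysed further. Only Serpina3g would have passed that filter on its PBS libraries alone, while the other 4 passed through their IL-3 libraries.

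The study used bulk RNA-seq to ask how IL-3 changes gene expression in BMBAs, which are basophils grown in culture from mouse bone marrow. The cells came from C57BL/6J WT bone marrow kept for 7 days at 0.3 ng/mL of cytokine, which the study's methods name as IL-3, so both groups had met IL-3 before the stimulation, and CD49b-positive cells were then enriched on beads. The PBS group (3 libraries) received PBS and the IL-3 group (3 libraries) received 10 ng/mL IL-3, each for 6 h. Mouse sex and age, and whether each library came from a separate animal, are not stated in the labels or methods, so that the spread between libraries may be technical in part.

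Serpins are protease inhibitors that act as bait: the target protease cuts an exposed loop of the serpin, the serpin springs into a new shape, and the protease stays trapped in a dead complex. Mice carry an expanded Serpina3 family, whose relative in humans is SERPINA3, the plasma inhibitor antichymotrypsin, and its members differ most in that loop. Serpina3g, also called Spi2A, works inside cells and inhibits lysosomal cysteine cathepsins as well as serine proteases, whereas Serpina3n is secreted and inhibits granzyme B and neutrophil elastase. IL-3 signals in basophils through the beta common receptor chain, the kinase JAK2 and the transcription factor STAT5.

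The members lie within 199.8 kb of one another. In GENCODE M21 (GRCm38), Serpina3f (ENSMUSG00000066363) occupies 104214544 to 104221129, Serpina3g (ENSMUSG00000041481) 104236245 to 104241939 and Serpina3i (ENSMUSG00000079014) 104263122 to 104269372. Serpina3n (ENSMUSG00000021091) lies at 104406729 to 104414329, and these 4 are annotated as protein-coding on the plus strand. Serpina3h (ENSMUSG00000041449, 104247905 to 104253669), between Serpina3g and Serpina3i, is annotated as a transcribed pseudogene, with no annotated protein. Serpina3m (104338486 to 104394257) is protein-coding and overlaps Serpina3k. In all, 14 Serpina3 genes are annotated there and 9 of them had a row, the non-members being Serpina3b, Serpina3e-ps, Serpina3j and Serpina3k.

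The members are close copies, which decides how far their reads can be told apart. An exon of 151 nt is shown for the 5 members with a row, from the GENCODE M21 transcripts on GRCm38, plus strand, 5′ to 3′. It is a coding exon, or in Serpina3h an exon of the pseudogene, and capitals mark the bases that differ from Serpina3g in an alignment without gaps:
Serpina3g, chr12:104240247-104240397: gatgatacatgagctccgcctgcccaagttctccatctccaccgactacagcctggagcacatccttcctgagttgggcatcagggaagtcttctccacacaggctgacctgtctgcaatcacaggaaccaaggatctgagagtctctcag
Serpina3f, chr12:104219419-104219569: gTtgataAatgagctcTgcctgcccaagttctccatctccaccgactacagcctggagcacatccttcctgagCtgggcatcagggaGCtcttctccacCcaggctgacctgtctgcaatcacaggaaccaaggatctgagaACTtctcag
Serpina3h, chr12:104252685-104252835: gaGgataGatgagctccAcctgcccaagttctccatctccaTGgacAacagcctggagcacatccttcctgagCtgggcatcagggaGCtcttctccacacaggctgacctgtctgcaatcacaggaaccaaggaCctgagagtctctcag
Serpina3i, chr12:104267656-104267806: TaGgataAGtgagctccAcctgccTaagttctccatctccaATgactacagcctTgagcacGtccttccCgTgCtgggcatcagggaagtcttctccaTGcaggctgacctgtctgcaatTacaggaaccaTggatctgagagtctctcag
Serpina3n, chr12:104412334-104412484: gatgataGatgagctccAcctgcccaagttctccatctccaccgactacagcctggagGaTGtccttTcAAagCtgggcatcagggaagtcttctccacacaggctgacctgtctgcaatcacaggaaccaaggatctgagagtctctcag
Against Serpina3g, Serpina3n differed at 9 of the 151 bases, Serpina3f and Serpina3h at 10 each and Serpina3i at 17. The longest run identical to Serpina3g was 77 bases in Serpina3n, 56 in Serpina3f, 46 in Serpina3h and 24 in Serpina3i. In the longer exon of 274 nt the same 4 genes were 85.8%, 91.2%, 91.6% and 88.0% identical to Serpina3g, in that order of genes.

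The upstream sequences of Serpina3g, Serpina3i and Serpina3f also contain a short stretch in common. Stretches of 120 bases from the RefSeq promoters (GRCm38.p6, plus strand, 5′ to 3′) are shown because they hold the STAT-type palindrome TTCNNNGAA, in capitals, in the first 3 genes and not in Serpina3n, for which the stretch most like that of Serpina3g is given:
Serpina3g, chr12:104236054-104236173: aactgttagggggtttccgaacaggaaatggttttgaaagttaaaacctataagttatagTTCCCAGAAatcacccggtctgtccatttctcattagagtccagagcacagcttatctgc
Serpina3i, chr12:104262960-104263079: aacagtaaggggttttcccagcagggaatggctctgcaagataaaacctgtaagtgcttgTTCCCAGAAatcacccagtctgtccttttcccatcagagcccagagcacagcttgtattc
Serpina3f, chr12:104214363-104214482: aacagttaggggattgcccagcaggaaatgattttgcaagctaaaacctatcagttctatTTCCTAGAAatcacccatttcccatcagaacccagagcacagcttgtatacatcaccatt
Serpina3n, chr12:104406525-104406644: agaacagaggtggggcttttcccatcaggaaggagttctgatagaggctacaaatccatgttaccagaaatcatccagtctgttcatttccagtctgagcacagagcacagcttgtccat
The match read TTCCCAGAA in Serpina3g (104236114 to 104236122) and Serpina3i (104263020 to 104263028) and TTCCTAGAA in Serpina3f (104214423 to 104214431). It lay 33, 102 and 121 bases before the RefSeq start of the respective gene, and 210 bases before the second RefSeq start of Serpina3f. The distance in Serpina3g depends on the annotation, as its GENCODE start (104236245) lies further downstream than its RefSeq start. Without gaps, 98 of the 120 bases of Serpina3i, 74 of Serpina3f and 64 of Serpina3n were identical to Serpina3g.

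The motifs were searched on both strands in windows from 250 bases before to 50 after the RefSeq start. TTCNNNGAA occurred in 8.30% of all 32851 promoters and in 4 of the 9 Serpina3 promoters, of which 2 are overlapping windows of Serpina3f. RefSeq promoters were at hand for 4 of the members. The same palindrome with 4 bases between TTC and GAA was present in Serpina3i (TTCCTAAGAA, 34 bases before the start) and in 6.95% of all promoters. The C/EBP-type motif TTGCNNAA matched Serpina3f and Serpina3b and 10.8% of all promoters. Neither the NF-kB-type motif (0.411% of promoters) nor the palindromic glucocorticoid receptor motif (0.00913%) matched a Serpina3 promoter. A match is a matter of letters only and does not show that a factor binds there.

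Serpina3g carried most of the family's reads. Its raw counts were 195, 185 and 221 in PBS replicates 1, 2 and 3 and 3714, 4523 and 4376 in IL-3 replicates 1, 2 and 3. Scaled to CPM, counts relative to the library size after TMM scaling, these were 16.0, 16.2 and 19.5 CPM in PBS replicates 1, 2 and 3 and 367, 377 and 339 CPM in the IL-3 ones. The lowest IL-3 library was far above the highest PBS library, and the libraries of each group lay close together. Mean expression went from 17.2 ± 1.96 to 361 ± 19.3 CPM (SD, n = 3 each). On the log2 scale the fitted difference was 4.39 (SE 0.0805), or 21.0-fold. All 5 members with a row had their 3 IL-3 libraries above their 3 PBS libraries, as had 23.8% of all tested symbols, and since the members were selected on this contrast nothing is read from that count.

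**Figure D1:**
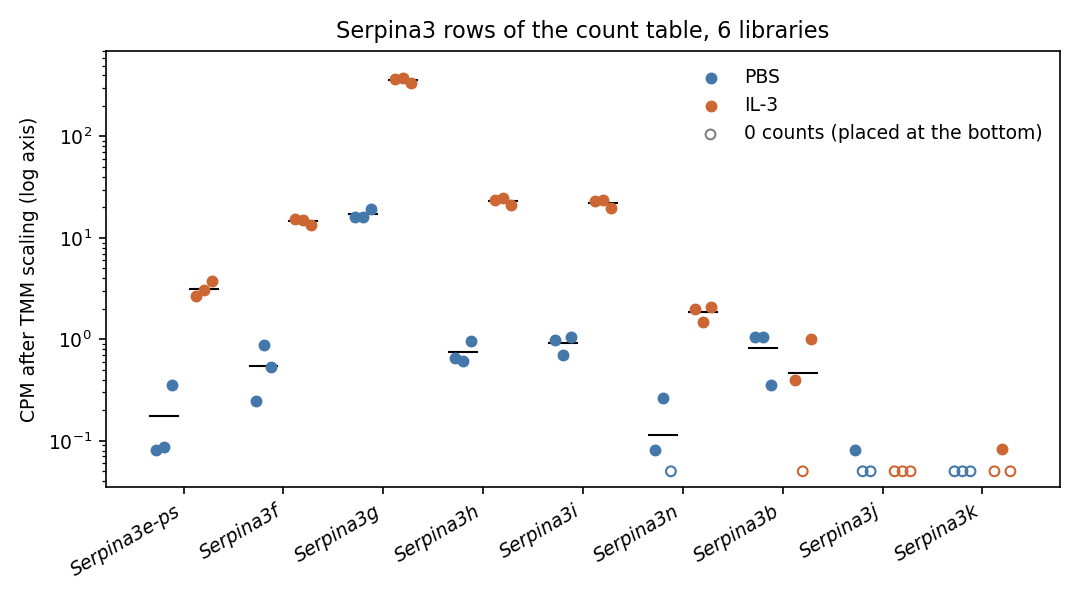
Normalised expression of the 9 Serpina3 rows in the 6 libraries, as CPM after TMM scaling on a log axis. Each filled point is a library, each black line the mean of a group, and open circles at the bottom stand for libraries with 0 counts. In the 5 members and in Serpina3e-ps the IL-3 libraries all lie above the PBS libraries, whereas Serpina3b overlaps and Serpina3j and Serpina3k hold 1 count each.

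Serpina3h, the transcribed pseudogene, had the largest log2 fold change of the members. It had 8, 7 and 11 counts in the PBS libraries and 240, 295 and 275 counts in the IL-3 libraries, without overlap. Its mean went from 0.746 ± 0.194 to 23.2 ± 1.68 CPM, 30.7-fold or 4.94 (SE 0.197) on the log2 scale, the third-largest positive value of all tested symbols. Because the PBS counts are few, the ratio of the summed counts carries a wide counting interval, 31.1 with 95% bounds of 21.1 and 47.9.

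Serpina3i and Serpina3f, both protein-coding neighbours of Serpina3g, behaved alike. Serpina3i had 12, 8 and 12 counts in PBS and 232, 287 and 257 counts in IL-3. Its means were 0.913 ± 0.187 and 22.2 ± 2.06 CPM, which differ on the log2 scale by 4.59 (SE 0.194). Both groups were tight and far apart. Serpina3f had 3, 10 and 6 counts in PBS against 156, 182 and 173 in IL-3, and its means were 0.550 ± 0.316 and 14.7 ± 1.08 CPM, a log2 fold change of 4.72 (SE 0.262). Among its PBS libraries replicate 2 was the highest, and it still lay far below every IL-3 library.

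Serpina3n, the secreted inhibitor, had the fewest reads of the members. It had 1, 3 and 0 counts in the PBS libraries and 20, 18 and 27 counts in the IL-3 libraries. The ratio of the summed counts after scaling was 16.2 with 95% counting bounds of 6.04 and 61.3. The groups did not overlap, but the size of the difference rests on very few PBS reads. The fitted log2 fold change of 3.90 (SE 0.567) became 5.14 without PBS replicate 2, which held 3 of the 4 PBS reads, and 2.83 with a prior count of 2. For scale, 3 counts correspond to 0.233 to 0.296 CPM in these libraries. Counting intervals cover counting error only, as reads copied by PCR are not independent molecules.

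In the order of their log2 fold changes the members were Serpina3h, Serpina3f, Serpina3i, Serpina3g and Serpina3n. The steps between Serpina3h, Serpina3f and Serpina3i, and between Serpina3i and Serpina3g, were smaller than or about as large as the SEs of the values, and the counting intervals of Serpina3h, Serpina3f and Serpina3i overlap. Among all 16675 tested symbols the 5 values, from the highest down, held ranks 3, 6, 8, 12 and 28. Serpina3e-ps, which is not a member, ranked 17, between Serpina3g and Serpina3n, so the choice of members is not a clean cut by size of rise.

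The levels, as opposed to the differences, were ordered otherwise. Per kilobase of the longest annotated transcript, Serpina3g stood at 9.55 ± 1.09 CPM per kb in PBS and at 200.2 ± 10.7 CPM per kb in IL-3. In IL-3, Serpina3h followed at 18.7 ± 1.35, Serpina3i at 10.1 ± 0.938, Serpina3f at 6.52 ± 0.481 and Serpina3n at 0.899 ± 0.153 CPM per kb. All neighbours in this order were separated by more than their SDs. In PBS, Serpina3h was at 0.602 ± 0.157, Serpina3i at 0.415 ± 0.0852, Serpina3f at 0.245 ± 0.141 and Serpina3n at 0.0557 ± 0.0652 CPM per kb, where the spreads of neighbouring genes meet.

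Summed over the 5 members, which is not touched by how reads are split among them, the family had 219, 213 and 250 counts in PBS and 4362, 5305 and 5108 counts in IL-3. The means were 19.5 ± 2.19 and 423 ± 23.8 CPM, and the log2 fold change was 4.44 (SE 0.0799), or 21.7-fold. Without Serpina3g, the summed log2 fold change of the other members was 4.73. With every Serpina3 row added, it was 4.38.

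The mix of members moved little in comparison. Serpina3g made up 89.0%, 86.9% and 88.4% of the family's reads in the PBS libraries and 85.1%, 85.3% and 85.7% in the IL-3 libraries. Its share was thus slightly lower in every IL-3 library, 88.1% ± 1.12 against 85.4% ± 0.276. Serpina3h took 3.65%, 3.29% and 4.40% in PBS and 5.50%, 5.56% and 5.38% in IL-3, again without overlap. The shares of Serpina3f, Serpina3i and Serpina3n overlapped between the groups.

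**Figure D2:**
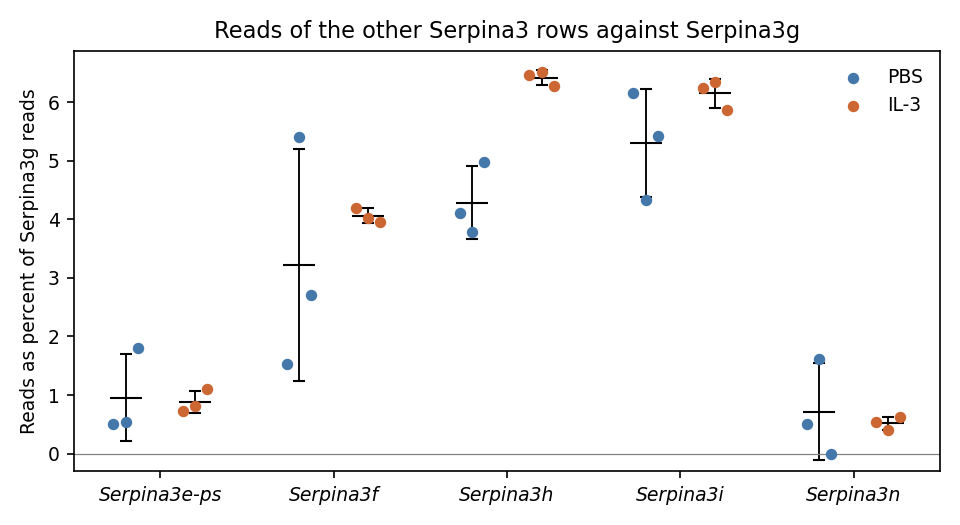
Reads of 5 other Serpina3 rows as a percentage of the Serpina3g reads of the same library, with points for libraries and black bars for mean ± SD (n = 3). Serpina3h goes from 4.29% ± 0.618 to 6.42% ± 0.124 without overlap, while the groups overlap for Serpina3f, Serpina3i, Serpina3n and Serpina3e-ps.

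Because the genes are copies, sequence shared with Serpina3g was measured. Of the 50-mers in its annotated transcripts, Serpina3g had 15.5% in common with transcripts of any other symbol, against 21.9% for Serpina3h, 15.9% for Serpina3i, 10.6% for Serpina3f and 6.90% for Serpina3n. With 100-mers these shares lay between 0.204% for Serpina3n and 3.60% for Serpina3h. The largest overlaps among the members were those of Serpina3h, which had 15.8% of its 50-mers in common with Serpina3i and 14.1% with Serpina3g.

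**Figure D3:**
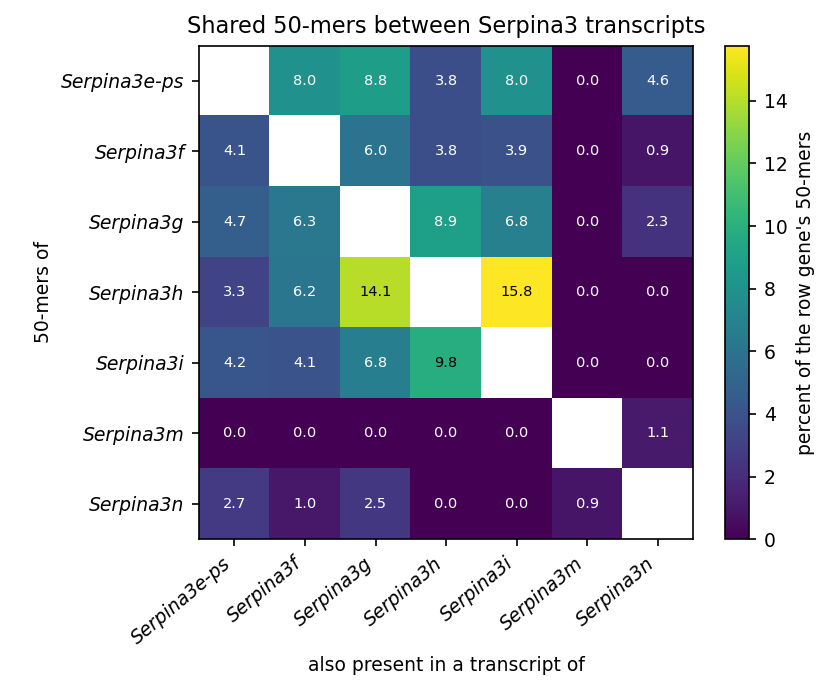
Percentage of the 50-mers of each row gene that also occur in a transcript of the column gene, for 7 Serpina3 genes in GENCODE M21. The highest values join Serpina3h with Serpina3i (15.8%) and with Serpina3g (14.1%), and Serpina3m has almost nothing in common with the others shown.

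Serpina3g had so many more reads than its copies that even small overlaps matter. If its reads were spread evenly, 1122 of its 12613 IL-3 reads would lie in 50-mers present also in Serpina3h, which itself had 810 IL-3 reads. The corresponding numbers were 863 against 776 reads for Serpina3i, 794 against 511 for Serpina3f and 293 against 65 for Serpina3n. With 100-mers they fell to 201, 201, 112 and 5.58 reads. How the authors' mapping placed reads that fit several genes is not described in the labels or methods, nor is the read length of these files, so what part of the reads of Serpina3h, Serpina3i, Serpina3f and Serpina3n came from Serpina3g transcripts was not tested.

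The other Serpina3 rows were not used to choose the members and entered the fit over the whole table, in which the edgeR quasi-likelihood test called 18.0% of tested symbols higher and 20.2% lower in IL-3 (adjusted p below 0.05). Serpina3e-ps, an unprocessed pseudogene on the minus strand (104189517 to 104192926), had 1, 1 and 4 counts in PBS and 27, 37 and 48 counts in IL-3. It passed the filter on low counts only through its IL-3 libraries, as did 4 of the members, so that a difference was bound to appear and its values are a description. Its log2 fold change was 4.13 (SE 0.452), and it reached 5.06 without PBS replicate 3, which held 4 of the 6 PBS reads. It had 21.6% of its 50-mers in common with other symbols, and 598 Serpina3g reads would lie in the part common to both, against its own 112 reads in IL-3.

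Serpina3b had 13, 12 and 4 counts in PBS and 4, 0 and 13 counts in IL-3, groups that overlap (log2 fold change -0.77, edgeR adjusted p 0.415). Its log2 fold change was -2.11 without IL-3 replicate 3, which held 13 of the 17 IL-3 reads, and -0.18 without IL-3 replicate 2, and it was not called in any fit run. Serpina3j and Serpina3k, the latter abundant in liver, had 1 count each over all 6 libraries, too few to be tested. In PBS the mean of Serpina3b, 0.823 CPM, was within the range of Serpina3f, Serpina3h and Serpina3i, whereas in IL-3 Serpina3b, Serpina3j and Serpina3k each had at most 13 counts in a library.

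The genes around the cluster were also compared, although between Serpina10 on one side and Dicer1 on the other no gene outside the Serpina3 family had enough reads to be tested. Within 1000 kb on each side, 47 symbols had a row and 19 were tested, of which 12 lay outside the Serpina3 genes. Of these 12, 5 were called higher and 2 lower, against 38.2% of all tested symbols called in either direction, and their median log2 fold change was 0.048. Asb2, a subunit of a ubiquitin ligase whose midpoint lies 876 kb before the start of Serpina3f, had the largest value, 4.16 (edgeR adjusted p 3.74e-16). The others called were Otub2 at 1.24, Syne3 at 0.54, Ddx24 at 0.34, Dicer1 at 0.27, Ifi27 at -0.42 and Snhg10 at -1.16. With scaling by library totals the calls of Ddx24 and Dicer1 were lost, at log2 fold changes of 0.17 and 0.11, and the call of Snhg10 was lost with the DESeq2 Wald test and in each fit that lacked replicate 1 or 3 of either group. These 7 genes are named for their position and were chosen after their values were seen.

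**Figure D4:**
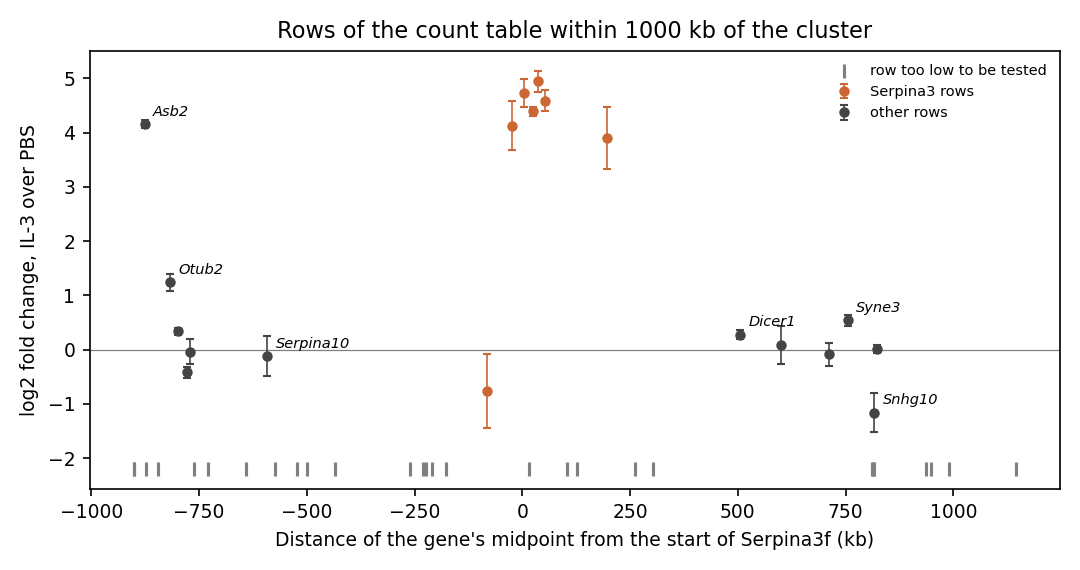
Log2 fold change of IL-3 over PBS, with SE, against the distance of each gene's midpoint from the start of Serpina3f in kb. Orange points are Serpina3 rows, dark points other tested rows, and grey ticks at the bottom rows too low to be tested. The tested Serpina3 rows between Serpina3e-ps and Serpina3n stand at 3.90 to 4.94, whereas the dark points lie between -0.42 and 0.54 apart from Asb2, Otub2 and Snhg10.

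Other serpins did not show rises of this size. Of 7 further clade A serpins with a row, only Serpina10, an inhibitor of coagulation, was tested (log2 fold change -0.12, edgeR adjusted p 0.828). Of 18 clade B serpins, which act inside cells, 6 were tested. Of these, 2 were called higher and 3 lower, against 18.0% and 20.2% of all tested symbols. Serpinb1a, an inhibitor of neutrophil serine proteases, rose by 1.10 on the log2 scale and Serpinb2 by 1.37, while Serpinb6a fell by 1.30 and Serpinb8 fell by 0.97. Of 10 serpins of other clades, 4 were tested and 2 called lower, namely Serpine2, a thrombin inhibitor, at -1.07 and Serpini1 at -0.69. The call of Serpini1 was lost with the DESeq2 Wald test and without PBS replicate 2 or IL-3 replicate 2, with an adjusted p of up to 0.0864.

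Proteases that serpins can act on moved in both directions. Of 19 tested serine proteases, 7 were called higher and 4 lower (median log2 fold change 0.11), or 6 and 6 when libraries were scaled by their totals. Among all tested symbols, 18.0% were called higher and 20.2% lower. Gzmb, encoding granzyme B, averaged 156 CPM with PBS and 1441 CPM with IL-3, with a log2 fold change of 3.21 (edgeR adjusted p 8.84e-15). The basophil and mast cell proteases Mcpt8, Cma1 and Tpsb2 rose by 0.94, 1.31 and 1.04. Other proteases of these cells did not follow: the mast cell proteases Mcpt1 and Mcpt2 fell by 1.55 and 1.08 (edgeR adjusted p 0.000117 and 0.00122), and the basophil protease Prss34 stood at 0.01 and was not called (edgeR adjusted p 0.860), but was called lower at -0.15 with scaling by library totals. Its direction also turned with iterated TMM and without replicate 1 of either group. These 3 were picked with their values in view. Among 10 tested cysteine cathepsins, lysosomal enzymes that include targets of Serpina3g, 8 were called lower and 1 higher, with a median of -0.95. Ctsb, Ctss, Ctsh and Ctsl had log2 fold changes of -1.07, -1.02, -1.17 and -1.03, with edgeR adjusted p between 7.47e-11 and 4.06e-09. Monocyte and macrophage markers were lower as well, with 8 of 10 called lower, a median of -0.996 and a summed level of 11931 to 12869 CPM in PBS and 6226 to 6853 CPM in IL-3. Their part in the cathepsin values was not tested.

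Inhibitors of other families were divided. Of 10 tested, 5 were called higher and 5 lower (median -0.01), against 18.0% and 20.2% of all tested symbols. With scaling by library totals, 3 were called higher and 5 lower. Slpi, an inhibitor of elastase and cathepsin G, averaged 508 CPM with PBS and 3348 CPM with IL-3, with a log2 fold change of 2.72 (edgeR adjusted p 4.78e-15). Spint1, an inhibitor of cell-surface serine proteases, rose by 1.26 and Cst7, an inhibitor of cysteine cathepsins, rose by 0.84, while Timp2, which inhibits metalloproteases, fell by 0.79.

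**Figure D5:**
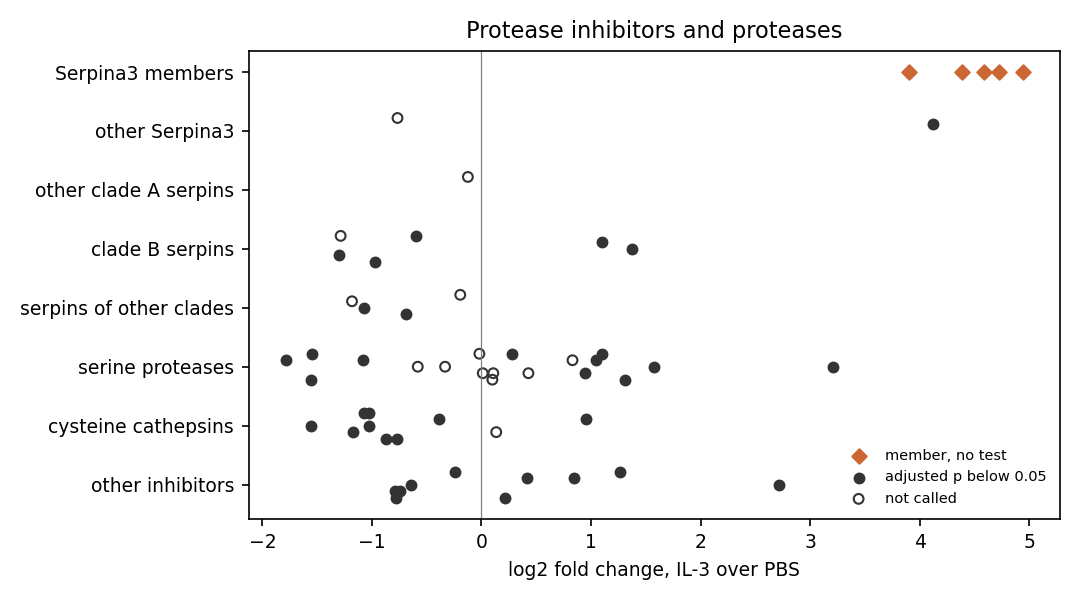
Log2 fold changes of IL-3 over PBS for the 5 Serpina3 members (diamonds, not tested) and for tested genes of 7 lists of serpins, proteases and inhibitors. Filled circles passed the edgeR quasi-likelihood test (adjusted p below 0.05) and open circles did not. Serpina3e-ps is drawn filled, but it passed the filter on low counts only through its IL-3 libraries and is a description. The members lie between 3.90 and 4.94, and among the other genes Serpina3e-ps at 4.13 is the only one in that range, with Gzmb at 3.21 next.

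Serpina3 genes belong to the acute-phase response in liver. Of 11 tested genes of that response, 1 was called higher and 6 lower (median -0.42), against 18.0% and 20.2% of all tested symbols, and the number called was 4 without replicate 1 of either group, PBS replicate 3 or IL-3 replicate 2. Lcn2, encoding an iron-sequestering protein, was the gene called higher, at 0.47. Cd14, a receptor for bacterial lipopolysaccharide, and the metallothioneins Mt1 and Mt2 had log2 fold changes of -1.35, -0.74 and -0.55. Of the 4 liver markers with a row, Alb, Apoc3 and Ahsg had no read in any library, and Apoa1 had 6, 5 and 2 counts in PBS and 3 counts in each IL-3 library, too few to be tested.

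Components and feedback genes of the pathways known to act on Serpina3 genes were mostly called. Of 31 tested, 17 were higher and 9 lower (median 0.39), against 18.0% and 20.2% of all tested symbols. Cish and Socs3, feedback inhibitors of JAK-STAT signalling, had log2 fold changes of 4.01 and 3.63, and the cytokines Osm and Il6, which signal through gp130 and STAT3, of 3.69 and 3.95, each with an edgeR adjusted p of 1.89e-15 or less. Of the 9 called lower, Tsc22d3 was at -1.83, Nr3c1 at -0.75, Cebpa at -0.71, Nfkb2 at -0.56 and Il6ra at -0.54. The others were Ifngr1 at -0.51, Irf1 at -0.45, Stat3 at -0.25 and Stat5b at -0.24. By the shape of their values over the 6 libraries, the genes most like the summed family were Cish, Rbpj, Trim16, Cd55b and Slc7a5. Their Pearson r with the family's log2 CPM lay between 0.9998 and 0.9999, and of 653 candidates 231 had an r above 0.99, since all 6 points share the step between the groups. Their own log2 fold changes ranged from 1.28 for Rbpj to 4.01 for Cish, so likeness of shape did not mean likeness of size.

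The libraries held 10537540 to 13999287 counts, and over all symbols tested 3003 (18.0%) were higher and 3372 (20.2%) were lower, or 1698 and 5030 with scaling by library totals. Markers of other cells moved between the groups. Summed basophil markers went from 10250 to 11444 CPM in PBS to 15297 to 15494 CPM in IL-3, with 6 of 8 called higher, among them Cd200r3, Mcpt8, Gata2 and Ms4a2, while Fcer1a was called lower at -0.50 and Prss34 was not called except, as lower, with scaling by library totals. Summed monocyte and macrophage markers went from 11931 to 12869 CPM in PBS to 6226 to 6853 CPM in IL-3, with 8 of 10 called lower, led by Lyz2, C1qb and C1qc, while Adgre1 was called higher at 0.53 and Mrc1, at -0.16, was not called. Mrc1 was called lower with scaling by library totals (-0.32) and without IL-3 replicate 1 (-0.24). Fcer1a, Prss34, Adgre1 and Mrc1 were chosen after their values were seen.

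Mast cell markers (908 to 1042 CPM with PBS, 1462 to 1596 CPM with IL-3) had 4 of 8 tested genes called higher and 2 lower, the former being Cma1, Tpsb2, Cpa3 and Kit and the latter Mcpt1 and Mcpt2. Summed neutrophil markers had 122 to 159 CPM with PBS and 195 to 259 CPM with IL-3. Of these 7 tested genes, Retnlg and Lcn2 were higher, Mpo was lower and 3 were not called. The remaining gene, Ly6g, had 0, 4 and 2 counts in PBS and 23, 35 and 22 counts in IL-3. It passed the filter on low counts only through its IL-3 libraries, so its higher values are a description. Eosinophil markers (157 to 175 CPM and 99.6 to 140.1 CPM) had Prg2 higher and Ear2, Ear1 and Siglecf lower, and of 4 tested T and NK cell markers Gzmb and Nkg7 were higher, while Cd3d and Cd3g were not called. The part of these shifts in the values of the Serpina3 members and of the other genes named was not tested. In bulk RNA, fewer cells of a type and less RNA per cell cannot be told apart.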

How the data were processed

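Read counts per gene symbol were analysed as the authors deposited them, in 1 table of 6 libraries from PBS-treated and IL-3-stimulated BMBAs. According to the study's methods, poly(A) RNA was reverse-transcribed on beads, amplified as whole-transcriptome cDNA and fragmented, and the authors trimmed reads with cutadapt (3.4), mapped them to reference RNA with Bowtie2 and counted them per gene. The build is GRCm38 in the methods and GRCm39 in the submitters' processing notes, and the methods name direct lysis where the labels name column extraction. No molecular identifiers are described. Library totals were 10537540 to 13999287 counts.

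Rows were filtered with filterByExpr, scaled by TMM and compared with the quasi-likelihood F test of edgeR 4.0.16 (R 4.3.3) with group as the only term, as the study's tool TCC relies on edgeR. P-values are two-sided and were adjusted by the Benjamini-Hochberg method over all 16675 rows tested. SE was taken from F, CPM is after TMM scaling, and counting intervals are exact conditional binomial at 95%. The procedure was tested on simulated data. Coordinates, transcripts and k-mers came from GENCODE M21, which held 96.1% of the symbols, and promoters from RefSeq.

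The members and gene lists were chosen with earlier results of these data known. Named genes are the members, the other Serpina3 rows, in each list the 4 called genes of lowest adjusted p, and the 5 genes with the highest Pearson r to the summed family among those that reached 20 CPM in either group and changed at least 2-fold. Other names were chosen after their values were seen. A gene that this rule selects is not reported here. Alternatives were DESeq2 1.42.0 size factors and Wald test, library totals, iterated TMM (DEGES), other filters, omission of the most counted ribosomal RNA row, a replicate block, limma-voom (limma 3.58.1), the edgeR exact test, a prior count of 2, other sums, shares per kilobase and leaving out each library.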

Additional observations from a re-analysis of the deposited data

How the results depend on the processing

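The summed Serpina3 family had a log2 fold change of 4.28 to 4.73 over all alternatives, the latter when Serpina3g was left out of the sum, and of 4.38 to 4.53 with 1 library left out. Serpina3g ranged from 4.23 to 4.49, Serpina3h from 4.67 to 5.17, Serpina3i from 4.37 to 4.70 and Serpina3f from 4.36 to 5.22. Serpina3n was at 2.83 with a prior count of 2 and, over fits that each lacked 1 library, between 3.37 and 5.14. The share of Serpina3g in IL-3 was 84.7% when counts were divided by transcript length.

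Scaling by library totals called 1698 genes higher and moved the median log2 fold change by -0.16. With no filter on low counts, 14 serpins outside the members were called in place of 8, as more rows were tested. The 8 include Serpina3e-ps, whose values are a description. Acute-phase genes called numbered 4 to 6 with 1 library left out and 5 to 7 under the other alternatives, against 7 as reported, and the cause was not tested. Among the genes named by the rule other than members, 3 values lost their call, all of Serpini1, and no direction was reversed. Serpina3b had a log2 fold change of -2.11 to -0.18 and no value under the filter at 1 CPM in 3 libraries, which it did not pass.

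The same alternatives were run for genes named after their values were seen, a choice made after seeing the data. Single values of the pathway genes called lower were not followed in them. Of the called neighbours of the cluster, Ddx24 and Dicer1 lost their call with scaling by library totals, at 0.17 and 0.11. Snhg10 lost it with the DESeq2 Wald test and in the fits that each lacked replicate 1 or 3 of either group, with a log2 fold change of -1.47 to -1.01 over all fits that lacked 1 library and an adjusted p of up to 0.0739. Asb2, Otub2, Syne3 and Ifi27 kept theirs in every alternative, as did Mcpt1, Mcpt2, Fcer1a and Adgre1. Mrc1 was called lower with scaling by library totals (-0.32) and without IL-3 replicate 1. Directions were reversed only for genes that were not called: Prss34 was at -0.012 with iterated TMM, at -0.15 and called lower with scaling by library totals, and ranged from -0.027 to 0.056 over the fits that each lacked 1 library, in which Cd3g ranged from -1.01 to 0.70 and Serpina10 from -0.30 to 0.093.

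A replicate block gave 2842 higher and 3247 lower genes. It changed no call of a named gene other than a member, the pathway genes called lower not being followed. Whether libraries of the same number shared a culture or animal is not stated. The deviations of libraries 1, 2 and 3 from the mean of their group had correlations of -0.0087, -0.016 and -0.022 across the groups. These values cannot decide it, since the noise of single libraries could hide a shared origin. Depth limits Serpina3n, Serpina3e-ps and the PBS levels of Serpina3f, Serpina3h and Serpina3i, which rest on 12 counts or fewer per library.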
